A study of Mus musculus with 3 samples.

Results

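The 9 genes described here, Crx, Nrl, Nr2e3, Otx2, Rorb, Thrb, Rxrg, Esrrb and Samd11, encode regulators known for setting or keeping the fate of retinal photoreceptors. They were chosen by name from a list of photoreceptor regulators, out of 18545 genes in the expression matrix, and all 9 had unique molecular identifiers (UMIs, each counting 1 captured RNA molecule) in the data. Their levels were followed in rods, in cones and in the classes of bipolar cells of mouse retinas profiled by droplet-based single-cell RNA sequencing of transcript 3′ ends.

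Photoreceptors and bipolar cells arise from progenitors that carry the homeodomain factors OTX2 and CRX, and the nuclear receptor RORβ acts early in the same lineage. The leucine-zipper factor NRL directs a precursor to the rod fate and turns on the nuclear receptor NR2E3, which represses cone genes. The thyroid hormone receptor TRβ, encoded by Thrb, and the retinoid receptor RXRγ, encoded by Rxrg, pattern the cone opsins, while ERRβ (Esrrb) and the nuclear protein SAMD11 act in maturing rods.

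Each of the 3 groups was 1 library of dissociated retinal cells from C57BL/6J mice aged 8 weeks that had lived in darkness. The WT group was wild type and received the base chow used as vehicle, although its library title says non-treated. For this experiment the study states dark rearing for the rd10 mice and names no rearing for its wild type. The rd10-vehicle group carried the rd10 genotype, a missense change in Pde6b, which encodes a subunit of the rod phosphodiesterase, and received the same chow. The rd10-TMB group had the same genotype and took tamsulosin, metoprolol and bromocriptine with its chow. The labels give 1 retina from each of 4 mice pooled per library, the methods of the study give fewer mice for the rd10 groups, and the titles of both rd10 libraries say female whereas the methods give both sexes for wild type. With 1 pooled library per group there is no replicate, no p-value is given, and all intervals are 95% intervals that cover counting error only. A difference between groups therefore cannot be told apart from a difference between pools, sexes or dissociations.

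The windows just upstream of the transcription starts are shown first because CRX and OTX2, which are both among the 9 genes, are known to bind the DNA word TAATCC, a search chosen with the levels already known. When the opposite strand is printed, the same word reads GGATTA. RefSeq windows of 250 bases before the start on build GRCm38.p6 were found for 9 of 9 genes, 16 windows in all, and the word stood on either strand in 4 of them. Over all 32851 windows of that length, 6.25% held the word and 0.292% held at least 2 copies. The 4 windows follow 5′ to 3′ on the strand of the gene with the word in capitals, at chr7:15879956-15880205 (minus strand) for Crx, chr14:48665110-48665359 (minus) for Otx2, chr14:17660710-17660959 (plus) for Thrb and chr4:156255343-156255592 (minus) for Samd11. The starts used here for Otx2, Thrb and Samd11 lie inside the gene spans given further below.
Crx: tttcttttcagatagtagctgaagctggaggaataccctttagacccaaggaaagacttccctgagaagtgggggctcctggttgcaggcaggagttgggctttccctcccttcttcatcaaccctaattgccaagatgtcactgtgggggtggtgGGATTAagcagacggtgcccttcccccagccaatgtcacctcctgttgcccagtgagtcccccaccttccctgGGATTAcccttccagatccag
Otx2: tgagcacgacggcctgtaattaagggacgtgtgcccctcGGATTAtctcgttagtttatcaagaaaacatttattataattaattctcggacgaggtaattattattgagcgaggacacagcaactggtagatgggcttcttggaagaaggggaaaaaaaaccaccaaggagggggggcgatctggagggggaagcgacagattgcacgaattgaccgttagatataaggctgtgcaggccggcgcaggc
Thrb: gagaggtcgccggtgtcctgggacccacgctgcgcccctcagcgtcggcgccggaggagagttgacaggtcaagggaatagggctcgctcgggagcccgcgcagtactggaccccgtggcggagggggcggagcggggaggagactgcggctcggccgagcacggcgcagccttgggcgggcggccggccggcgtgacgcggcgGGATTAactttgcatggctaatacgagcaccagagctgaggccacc
Samd11: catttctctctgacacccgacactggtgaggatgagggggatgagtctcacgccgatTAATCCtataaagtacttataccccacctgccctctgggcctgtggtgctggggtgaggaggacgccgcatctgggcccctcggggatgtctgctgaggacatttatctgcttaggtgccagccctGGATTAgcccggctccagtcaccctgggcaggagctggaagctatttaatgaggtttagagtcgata
The copies in the Crx window lay at -94 and -21 from the start, those of Samd11 at -193 and -67, that of Otx2 at -211 and that of Thrb at -46. The windows of Nrl, Nr2e3, Rorb, Rxrg and Esrrb did not hold these letters. Nor did the other windows of Otx2 or the other window of Thrb, at chr14:17981394-17981643. A match is a description of the sequence and was not tied to binding in these cells.

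The genes lie apart in the genome except for 3 on chromosome 14. On GRCm38, Crx spans chr7:15865947-15879955, Otx2 chr14:48656781-48667644 and Rorb chr19:18930609-19111196. The rod regulators span chr14:55518978-55524981 (Nrl), chr9:59942771-59960834 (Nr2e3), chr12:86361117-86521628 (Esrrb) and chr4:156246966-156256011 (Samd11). The cone regulators span chr14:17659225-18040097 (Thrb) and chr1:167598362-167639623 (Rxrg). Reads are counted per gene, so the isoforms of Thrb, and of any other member, were summed. Same-strand annotations overlap Nr2e3 (Gm15507) and Otx2 (Gm49154), and how reads of those pairs were divided is not given in the sources used here.

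The libraries held 4478 cells and 18882951 UMIs in WT, 5952 cells and 37002532 UMIs in rd10-vehicle, and 4812 cells and 29192530 UMIs in rd10-TMB, and 25 cell barcodes occurred in more than 1 library. Classes follow the cluster numbers deposited by the authors. Cluster 1, taken as rods, passed the marker criterion for 10 of 10 rod markers, although Nrl and Nr2e3 are on that list, and cluster 4, taken as cones, for 9 of 9 cone markers. Cluster 2 passed 8 of 8 rod bipolar markers, clusters 7 and 8 passed 4 and 8 of 9 OFF cone bipolar markers, and cluster 3 passed 5 of 10 ON cone bipolar markers with none among its 10 leading genes, so that class is the least certain. These names were rebuilt here and are used as rod bipolar-like, ON cone bipolar-like and OFF cone bipolar-like. Rods numbered 1180 (WT), 556 (rd10-vehicle) and 746 (rd10-TMB), with medians of 1423, 1406 and 1536 UMIs per cell, and cones numbered 278, 542 and 412. Summed UMIs of a class were scaled to CPM, the UMIs of a gene per 1000000 UMIs of the class. Because the clusters were made from the most variable genes of these same cells, levels by cluster are a description, and because tags come from 3′ ends and not full lengths, the 9 genes are not ranked against each other.

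Crx, the homeobox activator of photoreceptor genes, was highest in cones and next highest in rods in each library. Its level in cones was 642 (WT), 429 (rd10-vehicle) and 499 CPM (rd10-TMB), and its level in rods was 509, 333 and 405 CPM in the same order. In the bipolar classes it lay between 131 and 178 CPM. The gap between photoreceptors and bipolar cells was larger than the counting intervals in each library, whereas the bipolar clusters had overlapping intervals with their neighbours in the order. In the endothelial-like cluster 11, where Crx is not known to act, it was at 21.5, 4.43 and 8.74 CPM, and in the Müller glia-like cluster 0 at 18.4, 18.7 and 20.4 CPM.

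Otx2, which acts upstream of Crx and stays on in bipolar cells, had the opposite order. It stood at 489, 488 and 470 CPM in ON cone bipolar-like cells, at 484, 452 and 375 CPM in OFF cone bipolar-like cells and at 377, 395 and 380 CPM in rod bipolar-like cells of WT, rd10-vehicle and rd10-TMB. Rods had 202, 252 and 213 CPM and cones 140, 123 and 131 CPM. Rods and cones thus lay below each bipolar class in each library, with cones below rods. Cluster 11 held 78.8 CPM of Otx2 in WT against 10.5 and 14.3 CPM in the rd10 libraries.

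Rorb, encoding an orphan nuclear receptor needed for rod formation, was spread widely over the classes. Rods had 606, 454 and 612 CPM and cones 222, 154 and 150 CPM in WT, rd10-vehicle and rd10-TMB. Rod bipolar-like cells had 564, 553 and 534 CPM, ON cone bipolar-like cells 602, 484 and 511 CPM, and OFF cone bipolar-like cells 385, 353 and 334 CPM. The Müller glia-like cluster 0 exceeded each photoreceptor and bipolar class, with 792, 639 and 690 CPM, so rods were not set apart by Rorb. Because cluster 0 held 530 cells in WT but 2492 and 1748 in the rd10 libraries, it contributed 25.9% of all Rorb UMIs (WT), then 77.8% (rd10-vehicle) and 72.5% (rd10-TMB). Rods contributed 10.7%, 2.1% and 4.8%.

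**Figure D1:**
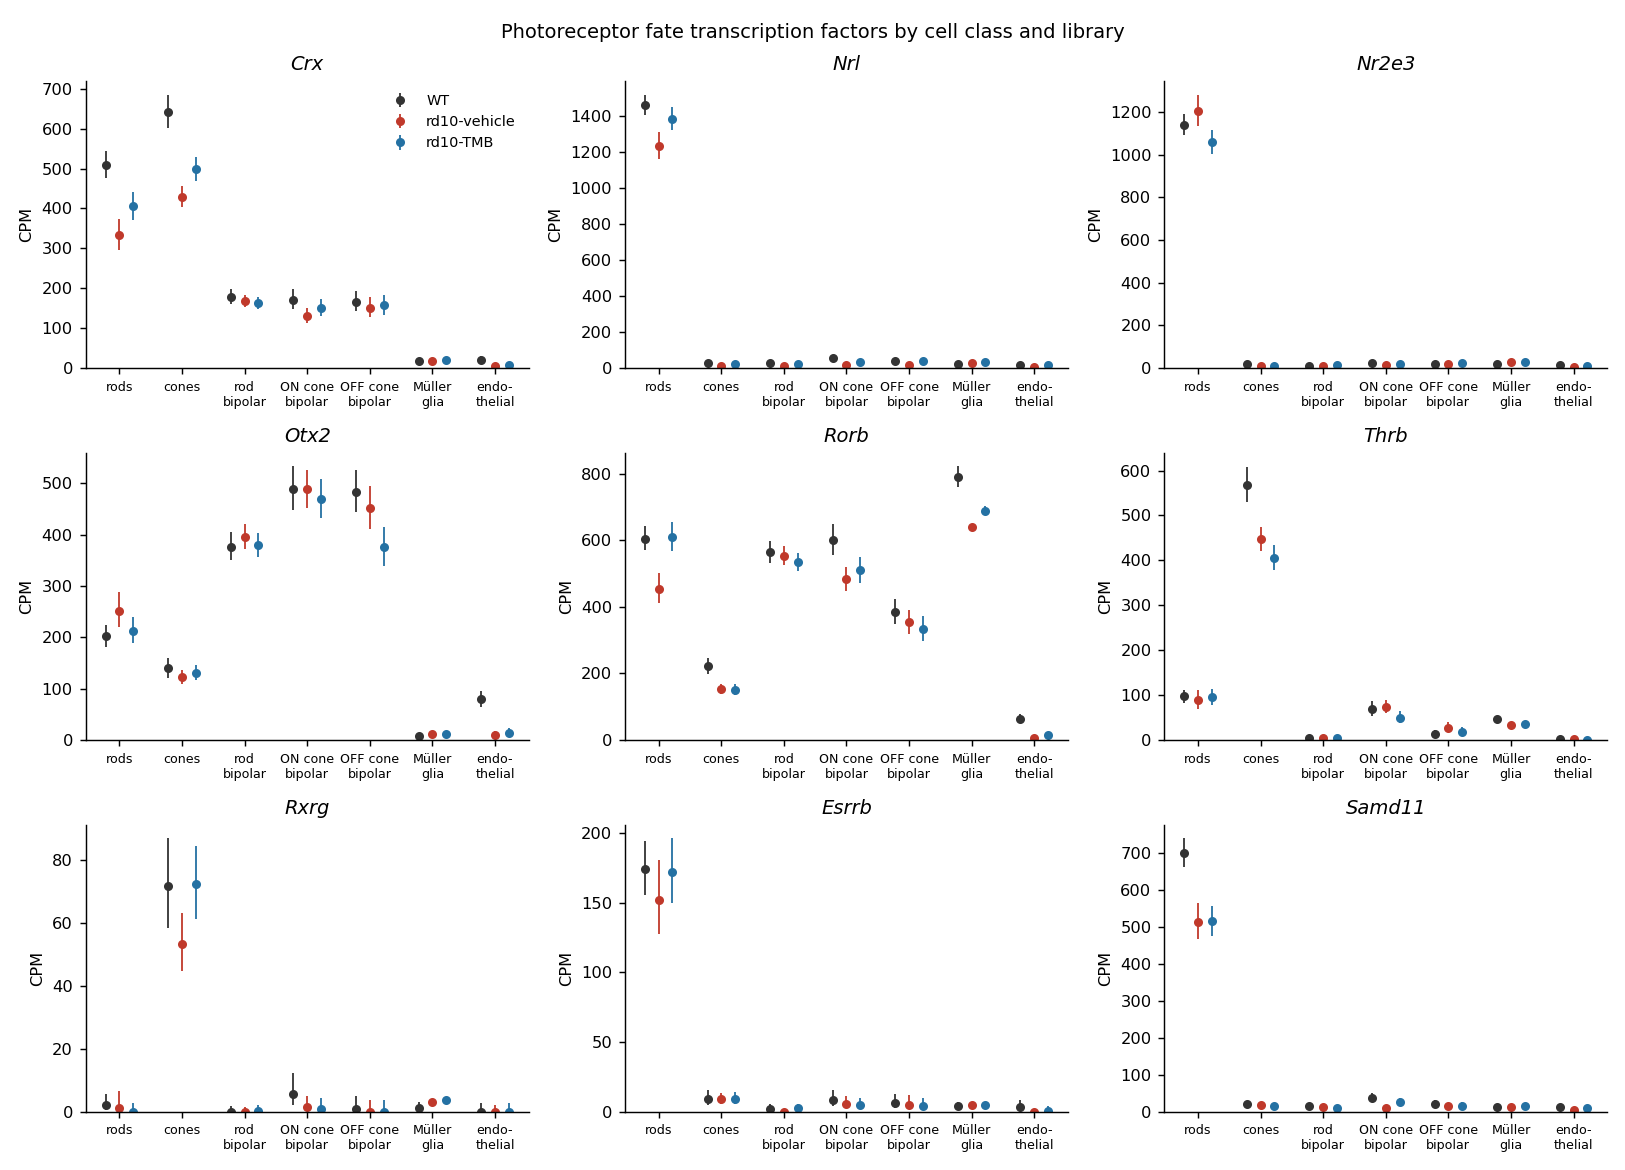
Levels of the 9 genes by cell class or cluster (CPM of summed UMIs, y axes from 0, each gene on its own scale, with exact Poisson 95% intervals) in the WT, rd10-vehicle and rd10-TMB libraries, each point being 1 class in 1 library. Nrl, Nr2e3, Esrrb and Samd11 stand out in rods, Thrb and Rxrg in cones, and Otx2 in the bipolar classes.

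Nrl, the leucine-zipper factor that specifies rods, was at 1464 CPM (interval 1409 to 1521) in WT rods, 1236 CPM (1163 to 1313) in rd10-vehicle rods and 1389 CPM (1324 to 1455) in rd10-TMB rods. No other class exceeded 56.9 CPM among the photoreceptor and bipolar classes. Nr2e3, the nuclear receptor that represses cone genes in rods, was at 1140, 1205 and 1059 CPM in rods and at or below 24.2 CPM in cones and bipolar classes. Both genes were on the list that named the rods, so their place in cluster 1 is no independent check.

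Samd11 and Esrrb were not on that list and had the same place. The clusters were made from the same cells, so this too is a description. Samd11, which encodes a sterile alpha motif protein of photoreceptor nuclei, was at 701 CPM (663 to 741) in WT rods, 515 CPM (468 to 565) in rd10-vehicle rods and 516 CPM (477 to 557) in rd10-TMB rods, against 19.6, 18.7 and 16.1 CPM in cones. Esrrb, an orphan nuclear receptor linked to rod metabolism and survival, was at 174, 152 and 172 CPM in rods and at 9.12, 8.97 and 9.20 CPM in cones. Outside rods Esrrb rested on few molecules, between 0 and 23 UMIs per photoreceptor or bipolar class and library. Rods contributed 83.6% of all Nrl UMIs (WT), then 56.3% (rd10-vehicle) and 67.3% (rd10-TMB), and for Esrrb the shares were 76.9%, 44.9% and 61.1%. The remainder in the rd10 libraries lay largely in the Müller glia-like cluster 0, which held 35.8% of Nrl UMIs in rd10-vehicle although its level there was only 30.5 CPM.

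Thrb was highest in cones in each library. Cones had 568 CPM (WT, interval 530 to 609), 447 CPM (rd10-vehicle, 421 to 473) and 406 CPM (rd10-TMB, 380 to 434). Rods had 96.8, 88.3 and 95 CPM, ON cone bipolar-like cells 69.0, 73.5 and 49.8 CPM, and rod bipolar-like cells 3.56, 4.21 and 3.33 CPM. Rxrg, its dimerisation partner, was at 71.6, 53.4 and 72.2 CPM in cones from 102, 137 and 157 UMIs. In rods only 4 UMIs of Rxrg were found in WT and 1 in rd10-vehicle, and 0 in rd10-TMB, which allows up to 2.37 CPM. In rod bipolar-like cells the counts were 0, 0 and 1, with limits of 1.53 CPM in WT and 1.15 CPM in rd10-vehicle. Rods thus held Thrb in each library, while Rxrg rested on at most 4 UMIs there.

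Whether the rd10 genotype and the drug mixture went with other levels of these genes was asked within each class. A gene was called different between a pair of libraries where it had at least 20 UMIs over both, changed at least 1.5-fold and had a counting interval of the log2 ratio that excluded 0. In rods, 8 of the 9 members could be compared and Rxrg could not. Rods of rd10-vehicle differed from WT rods in 1 of the 8, where 10.9% of the 9111 genes tested were called, a share near that of the members. For rd10-TMB over WT 0 of 8 were called (background 9.91%) and for rd10-TMB over rd10-vehicle 0 of 8 (background 4.73%). The median log2 ratio of the 8 was -0.22, -0.05 and 0.13 in these comparisons, beside -0.05, -0.07 and 0.00 over all genes tested. The first pair of comparisons share the WT library.

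The member called in rods was Crx. With 509, 333 and 405 CPM it was lower in rd10-vehicle than in WT by a log2 ratio of -0.61 (-0.81 to -0.42), a fold of 0.656, while rd10-TMB lay between them with -0.33 (-0.49 to -0.17) over WT and 0.28 (0.07 to 0.49) over rd10-vehicle. The ratio sat close to the 1.5-fold limit and was no longer called under either of 2 cell filters, at -0.57 with cells of at most 10% mitochondrial UMIs and at -0.50 with cells of at least 1000 detected genes. Samd11 had log2 ratios of -0.44 (-0.61 to -0.29) and -0.44 (-0.58 to -0.31) for rd10-vehicle and rd10-TMB over WT, and 0.00 (-0.17 to 0.18) between the rd10 libraries. Rorb had -0.41 (-0.59 to -0.25) in rd10-vehicle over WT, 0.01 (-0.12 to 0.15) in rd10-TMB over WT and 0.43 (0.25 to 0.61) between them. These intervals excluded 0 for some pairs and the ratios were under 1.5-fold. Samd11 was called over WT, at -0.61 for both rd10 libraries, when WT was limited to the cells in which Xist but no Y-linked transcript was found. With cells of at least 1000 detected genes, which kept 289, 123 and 205 rods, Rorb was called at -0.61 in rd10-vehicle over WT and 0.63 in rd10-TMB over rd10-vehicle, and Esrrb at -0.69 and 0.68.

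Nrl and Nr2e3, the core of the rod programme, differed by less than 1.5-fold between the rods of each pair of libraries. Nrl had a log2 ratio of -0.24 (-0.35 to -0.14) in rd10-vehicle over WT and 0.17 (0.06 to 0.28) in rd10-TMB over rd10-vehicle. Nr2e3 had 0.08 (-0.03 to 0.19) and -0.19 (-0.30 to -0.07) for the same pairs. Otx2 had 0.32 (0.07 to 0.57) in rd10-vehicle over WT, and Esrrb and Thrb had intervals that included 0 in each of the 3 comparisons. The summed level of 8 Müller glia markers in rods was 241 (WT), 719 (rd10-vehicle) and 603 CPM (rd10-TMB), that of 8 amacrine markers was 185, 34.9 and 35.6 CPM, and that of 8 bipolar markers was 251, 202 and 240 CPM. The part of such RNA from other cells in the ratios of the members was not tested.

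In cones most members had log2 ratios over WT below 0 in both rd10 libraries, and few were called. The 8 Müller glia markers summed to 323, 739 and 688 CPM in cones of WT, rd10-vehicle and rd10-TMB, and the median mitochondrial share was 8.77%, 10.2% and 10.3%, and the part of either in the ratios was not tested. Of the 9, 1 was called in rd10-vehicle over WT (background 6.98%), 1 in rd10-TMB over WT (6.92%) and 1 in rd10-TMB over rd10-vehicle (3.36%). Log2 ratios were below 0 for 9, 8 and 4 of the 9, with medians of -0.43, -0.30 and 0.05 beside -0.06, -0.05 and 0.01 over all genes tested. The genes called were the rod regulators Nrl and Nr2e3, which were near the background of cones. Nrl in cones fell from 26.0 to 12.1 CPM in rd10-vehicle, a log2 ratio of -1.10 (-1.84 to -0.38) from 37 and 31 UMIs, and was higher in rd10-TMB, at 23.5 CPM, than in rd10-vehicle by 0.94 (0.29 to 1.65). Nr2e3 in cones was called lower in rd10-TMB than in WT, 9.20 against 20.4 CPM, from 20 and 29 UMIs. After thinning none of these 3 calls remained in cones.

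The regulators that cones themselves express differed by less than 1.5-fold. Crx had a log2 ratio of -0.58 (-0.71 to -0.45) and -0.36 (-0.49 to -0.23) for rd10-vehicle and rd10-TMB over WT, so the size in cones was near that in rods but on the other side of the limit. Thrb had -0.35 (-0.48 to -0.22) in rd10-vehicle over WT, -0.49 (-0.63 to -0.35) in rd10-TMB over WT and -0.14 (-0.27 to -0.01) between the rd10 libraries. Rorb had -0.53 (-0.75 to -0.31) and -0.56 (-0.79 to -0.34) over WT. Rxrg had -0.43 (-0.80 to -0.04) in rd10-vehicle over WT, 0.01 (-0.36 to 0.39) in rd10-TMB over WT and 0.43 (0.10 to 0.78) between them. After thinning, Crx and Rorb were called lower in rd10-vehicle than in WT, and Rorb and Thrb lower in rd10-TMB than in WT. For Thrb the rd10-TMB library was therefore the lowest of the 3, and for Rxrg the rd10-vehicle library was.

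**Figure D2:**
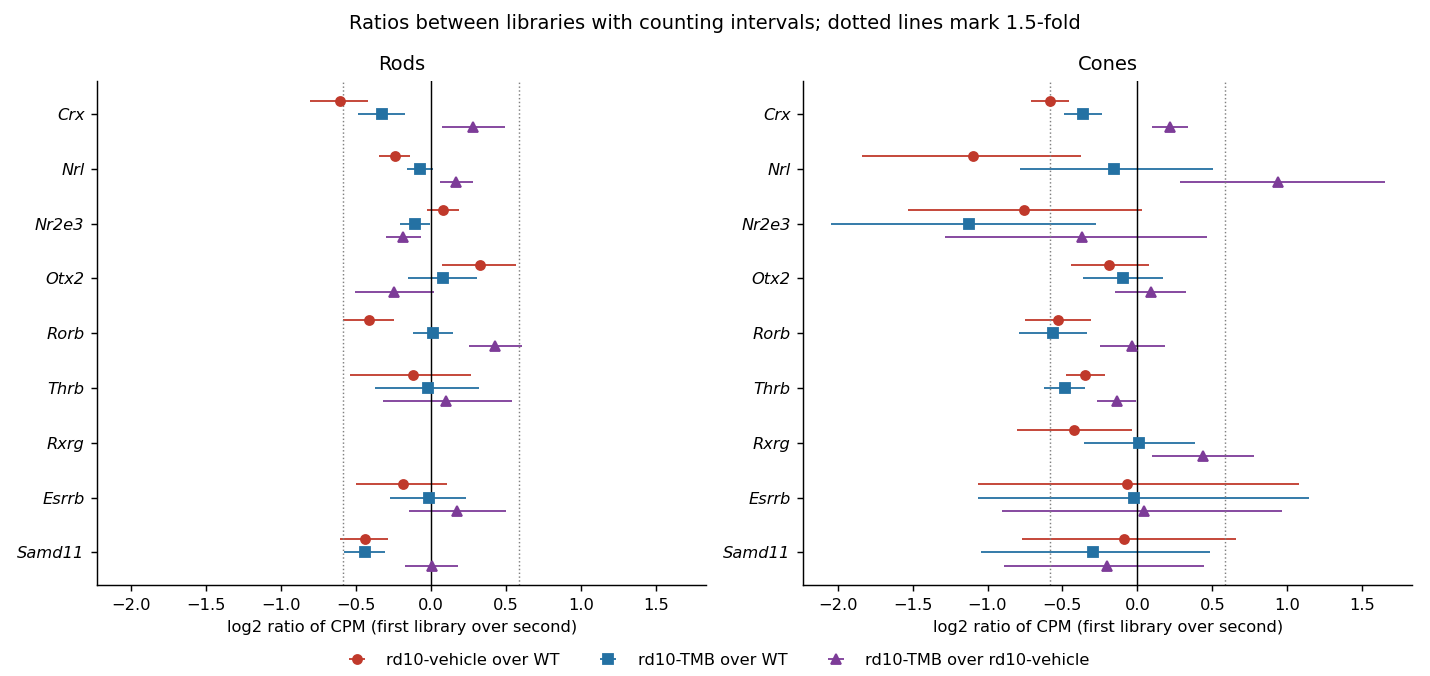
Log2 ratios of CPM between libraries (x axis) for each of the 9 genes in rods (left) and cones (right), with exact conditional 95% intervals and dotted lines at 1.5-fold. Crx in rd10-vehicle over WT lies at -0.61 in rods and -0.58 in cones, and Rxrg in rods is left out because it had under 20 UMIs.

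The share of cells with at least 1 UMI of a gene was also compared. Each cell was thinned to 1000 UMIs so that depth was equal, which left out 226, 68 and 80 shallower rods and 5, 11 and 15 cones in WT, rd10-vehicle and rd10-TMB. Crx was found in 41.4%, 26.6% and 32.1% of rods, and without thinning in 52.1%, 39.2% and 46.4%. Samd11 was found in 49.6%, 37.9% and 39.5% of thinned rods and in 61.0%, 52.0% and 56.2% of all rods. Nrl was found in 74.1%, 67.0% and 73.0% of thinned rods, so it was missed in many cells of a class it defines, and in 80.9%, 74.8% and 84.2% of all rods.

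In cones, Crx was found in 46.5%, 35.4% and 42.8% of thinned cells and Thrb in 38.5%, 33.5% and 31.5%. Without thinning the shares were 91.7%, 78.0% and 86.4% for Crx and 79.9%, 72.7% and 73.1% for Thrb. In the endothelial-like cluster 11, whose median depth was 7110, 9718 and 9117 UMIs, the thinned shares were 5.93%, 0.641% and 3% for Crx and 2.96%, 0.641% and 2% for Nrl. The share of thinned cones with a Nrl UMI, 4.76%, 1.13% and 2.52%, was close to that background. Thrb was found in 9.12%, 9.22% and 7.51% of thinned rods against 0%, 0.641% and 0% of cluster 11.

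**Figure D3:**
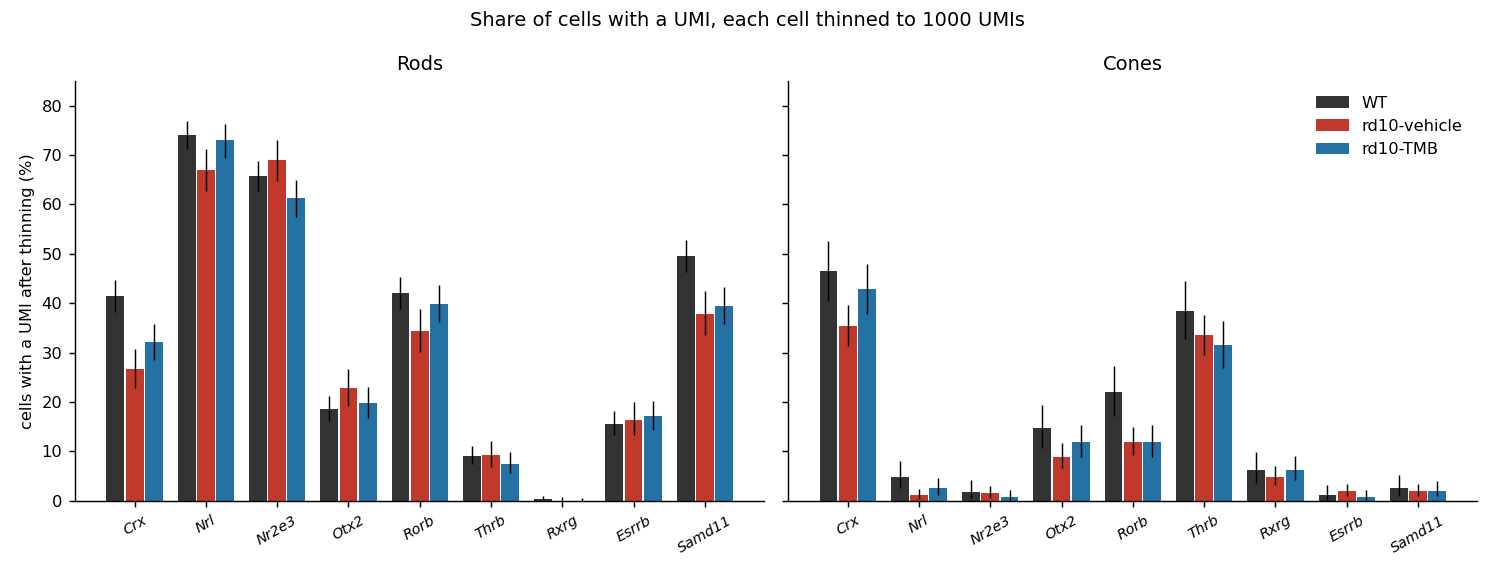
Share of cells (percent, with exact Clopper-Pearson 95% intervals) with at least 1 UMI of each gene in rods (left) and cones (right) after thinning each cell to 1000 UMIs, for the 3 libraries. Crx is found in 41.4% of WT rods and 26.6% of rd10-vehicle rods.

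Bipolar cells share OTX2 with photoreceptors, and Otx2 was not called in any bipolar class. In rod bipolar-like cells its log2 ratio was 0.07 (-0.07 to 0.21) in rd10-vehicle over WT and -0.06 (-0.18 to 0.07) in rd10-TMB over rd10-vehicle, while ON cone bipolar-like cells had -0.00 (-0.17 to 0.16) and -0.06 (-0.21 to 0.10). In OFF cone bipolar-like cells it was -0.36 (-0.56 to -0.17) in rd10-TMB over WT, under 1.5-fold. Crx and Rorb were not called in any bipolar class.

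The members that were called in bipolar cells were mostly rod regulators at low levels. In rod bipolar-like cells, 1 of 6 members with enough UMIs was called in rd10-vehicle over WT (background 5.62%), 0 of 6 in rd10-TMB over WT (4.87%) and 2 of 7 in rd10-TMB over rd10-vehicle (3.06%). Nrl there was at 27.5, 9.94 and 24.4 CPM, called lower in rd10-vehicle than in WT with a log2 ratio of -1.44 (-2.20 to -0.77) and higher with TMB than with vehicle, at 1.27 (0.62 to 2.01). Nr2e3 was the other gene called, rising from 8.79 CPM to 15.2 CPM between the rd10 libraries, with a log2 ratio of 0.76 (0.02 to 1.59). This call was lost with a fold limit of 2, with either cell filter and after thinning, and thinning ended the call of Nrl too.

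In ON cone bipolar-like cells, 2 of 7 were called in rd10-vehicle over WT (background 8.34%), 1 of 7 in rd10-TMB over WT (7.88%) and 2 of 7 in rd10-TMB over rd10-vehicle (3.31%). Nrl was at 56.9, 17.5 and 33.0 CPM, with log2 ratios of -1.67 (-2.43 to -1.01), -0.78 (-1.38 to -0.20) and 0.89 (0.17 to 1.69) in these comparisons. Its call in rd10-TMB over WT was lost with a fold limit of 2, either cell filter, the restricted WT cells and thinning. Samd11 was at 38.2, 11.2 and 26.1 CPM, called lower in rd10-vehicle than in WT, at -1.72 (-2.70 to -0.91), and higher with TMB than with vehicle, at 1.17 (0.32 to 2.18). In OFF cone bipolar-like cells, 2 of 7 were called in rd10-vehicle over WT (background 4.47%), 0 of 7 in rd10-TMB over WT (4.51%) and 1 of 7 in rd10-TMB over rd10-vehicle (3.54%). Nrl was at 36.9, 19.1 and 40.7 CPM, and Thrb was at 12.6, 27.2 and 17.9 CPM from 14, 27 and 18 UMIs, with a log2 ratio of 1.06 (0.13 to 2.15) in rd10-vehicle over WT. The Thrb call was lost under 5 of 14 settings, with the mean over cells, cells of at most 10% mitochondrial UMIs, the restricted WT cells, thinning and a minimum of 50 UMIs. Cone transcripts were higher in this class too, where the 9 cone markers summed to 1415, 1845 and 1979 CPM and Arr3 was at 29.7, 47.3 and 51.6 CPM, and their part in the Thrb ratio was not tested.

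Other rod transcripts and the cells that should lack them were read beside these values. The summed level of the 10 rod markers, Nrl and Nr2e3 among them, was 1309, 849 and 1201 CPM in rod bipolar-like cells of WT, rd10-vehicle and rd10-TMB. It was 4564, 3294 and 4482 CPM in ON cone bipolar-like cells and 3049, 2587 and 3169 CPM in OFF cone bipolar-like cells, lowest in rd10-vehicle in each class. In the endothelial-like cluster 11, where NRL is not known to act, Nrl was at 17.9, 4.43 and 15.1 CPM, also lowest in rd10-vehicle. Other cells had another order, since Nrl in the Müller glia-like cluster 0 was at 23.5, 30.5 and 33.9 CPM, lowest in WT, and the rod markers in cones summed to 10087, 10149 and 10504 CPM. The counting intervals of Nrl in rod bipolar-like cells and cluster 11 overlapped in each library, whereas those of ON and OFF cone bipolar-like cells lay above cluster 11 in each library. In WT, for example, the interval was 43.5 to 73.0 CPM in ON cone bipolar-like cells and 11.6 to 26.4 CPM in cluster 11. How much of the Nrl outside rods was free RNA from rods was not tested. The 8 Müller glia markers summed to 109, 468 and 311 CPM in rod bipolar-like cells. They summed to 241, 637 and 542 CPM in ON and to 233, 603 and 479 CPM in OFF cone bipolar-like cells. The 8 amacrine markers were at 44.8, 13.8 and 12.6 CPM, at 171, 43.4 and 27.6 CPM, and at 57.6, 23.1 and 10.9 CPM in these classes. The part of such RNA in the bipolar ratios was not tested.

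Thrb in rods was set beside Arr3 to compare it with a cone transcript found there. Arr3, which encodes cone arrestin, was at 64.0, 79.0 and 58.6 CPM in rods. Over 1000 Arr3 UMIs, a view added after the levels had been seen, cones held 120 Thrb UMIs in WT (111 to 129), 120 (rd10-vehicle, 113 to 128) and 81.1 (rd10-TMB, 75.6 to 86.8), whereas rods held 1513 (1189 to 1932), 1118 (795 to 1574) and 1622 (1204 to 2197). The ratio in rods was thus far above that of cones in each library, and so was that of ON cone bipolar-like cells, at 1396, 2188 and 1121. Arr3 was the only cone transcript used for this ratio.

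The rods in which Thrb was found held rod transcripts at levels near those of the other rods. They numbered 153 (WT), 69 (rd10-vehicle) and 106 (rd10-TMB), a split made after the values had been seen. Nrl was at 1593 CPM in them and 1443 CPM in the other rods of WT, while the rd10-vehicle values were 1169 and 1247 CPM and the rd10-TMB values 1425 and 1382 CPM. Arr3 was at 58.1 against 64.9 CPM (WT), 50.8 against 83.5 CPM (rd10-vehicle) and 58.6 against 58.6 CPM (rd10-TMB). The other cone genes read in this split went either way. In WT, Opn1sw was at 73.6 against 54.5 CPM, Opn1mw at 46.5 against 31.2 CPM and Gnat2, the α subunit of cone transducin, at 27.1 against 22.7 CPM, and Gnat2 was at 42.4 against 22.9 CPM in rd10-vehicle and 9.76 against 30.2 CPM in rd10-TMB. These rested on 2 to 19 UMIs in the rods with Thrb, and the intervals of the 4 cone genes overlapped in each library.

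Cones were also divided by opsin, since TRβ is known to favour the middle-wavelength opsin Opn1mw over the short-wavelength opsin Opn1sw. The division was added after the data had been seen and used cones with at least 10 opsin UMIs. Cells with mostly Opn1mw numbered 106 (WT), 245 (rd10-vehicle) and 164 (rd10-TMB), those with mostly Opn1sw 160, 260 and 213, and 27, 43 and 28 cells had a share between 0.4 and 0.6, so these are ranges of a continuum. Thrb was at 643 CPM in mostly-Opn1mw cells and 524 CPM in mostly-Opn1sw cells of WT, at 510 and 374 CPM in rd10-vehicle, and at 495 and 332 CPM in rd10-TMB. The log2 ratios were 0.29 (0.09 to 0.50), 0.45 (0.27 to 0.62) and 0.57 (0.38 to 0.77), above 0 in 3 of 3 libraries. Other cone genes differed between these cells too, and Arr3 had 0.51 (0.44 to 0.58), -0.11 (-0.17 to -0.05) and 0.05 (-0.00 to 0.11) for WT, rd10-vehicle and rd10-TMB.

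Rxrg had another order. It was at 76.5 and 68.5 CPM in the mostly-Opn1mw and mostly-Opn1sw cells of WT, a log2 ratio of 0.17 (-0.44 to 0.76). In rd10-vehicle it was at 38.7 and 69.9 CPM, a log2 ratio of -0.84 (-1.39 to -0.33), and in rd10-TMB at 48.7 and 90.4 CPM, a log2 ratio of -0.88 (-1.42 to -0.38). Gnat2 had 0.08 (-0.01 to 0.17), -0.36 (-0.43 to -0.29) and -0.43 (-0.51 to -0.35), below 0 in the same libraries as Rxrg. Crx differed little, with log2 ratios of -0.14, -0.14 and -0.06 and intervals that included 0. Rorb had -0.10, -0.18 and -0.47, the last with an interval of -0.82 to -0.14.

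**Figure D4:**
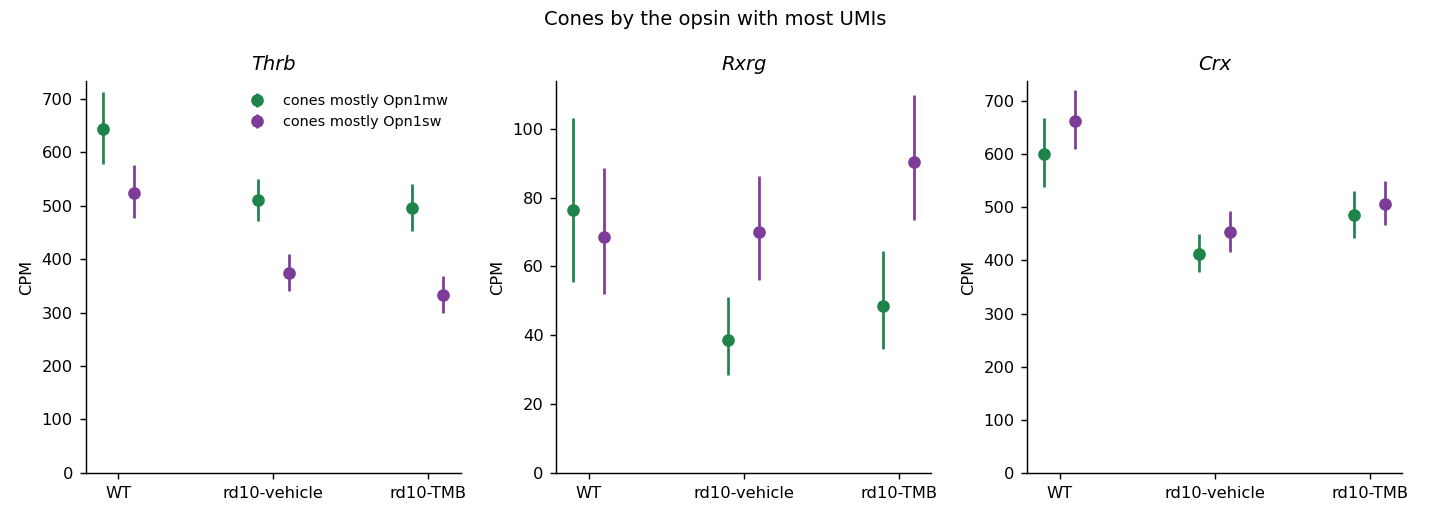
Levels of Thrb, Rxrg and Crx (CPM, with exact Poisson 95% intervals) in cones whose opsin UMIs were mostly Opn1mw or mostly Opn1sw, in the 3 libraries. Thrb is higher in mostly-Opn1mw cells in each library, Rxrg is lower in them in both rd10 libraries, and the intervals of Crx overlap in each library.

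The genes that these regulators are known to drive were counted by list. Of 18 rod genes, among them Nr2e3, itself 1 of the 9 members, the transducin subunit Gnat1 and the channel subunit Cnga1, 0 were called in rods in each of the 3 comparisons (background 10.9%, 9.91% and 4.73%), with median log2 ratios of -0.16, -0.10 and 0.09. The largest ratios of rd10-vehicle over WT among them were -0.36 (-0.49 to -0.24) for Cngb1, a subunit of the rod channel, and -0.33 (-0.53 to -0.13) for Nxnl1, source of the rod-derived cone viability factor. Gnb1, the β subunit of rod transducin, had -0.32 (-0.38 to -0.25) and the calcium sensor Rcvrn 0.26 (0.20 to 0.32).

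Of 13 cone genes, 9 could be compared in rods in rd10-vehicle over WT and 1 was called, a share near the background of 10.9%. It was Gnb3, the β subunit of cone transducin, which rod bipolar-like cells held too, as given below. Gnb3 was at 82.3 CPM in WT rods, 683 CPM in rd10-vehicle rods and 325 CPM in rd10-TMB rods, with log2 ratios of 3.05 (2.79 to 3.32) and 1.98 (1.71 to 2.26) over WT and -1.07 (-1.26 to -0.89) between the rd10 libraries. After thinning, 6.29%, 41.2% and 22.7% of rods had a Gnb3 UMI, and 9.75%, 51.4% and 31.0% without thinning, a view added after its level was seen. In cluster 11 the thinned shares were 1.48%, 5.13% and 0%, the last from 100 cells.

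The cone genes Arr3, Opn1mw and Pde6h were not called in rods. Arr3 had a log2 ratio of 0.31 (-0.15 to 0.75) in rd10-vehicle over WT, Opn1mw 0.34 (-0.31 to 0.95) and Pde6h, the cone phosphodiesterase inhibitor subunit, 0.57 (0.16 to 0.96). Cones had 3062, 3478 and 2666 CPM of Gnb3, and rod bipolar-like cells 1588, 2182 and 1946 CPM. In rd10-TMB over WT, Gnb3 was called higher and Kcne2 lower among 9 cone genes (background 9.91%), and in rd10-TMB over rd10-vehicle Gnb3 was called lower among 8 (4.73%).

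In cones, 2 of 12 cone genes were lower in rd10-vehicle than in WT (background 6.98%). Kcne2, a potassium channel subunit, was at 877, 448 and 463 CPM, with a log2 ratio of -0.97 (-1.09 to -0.85), and Cnga3, a subunit of the cone channel, was at 112, 71.3 and 97.1 CPM, with -0.65 (-0.96 to -0.33). Of 12 measured, 1 (Kcne2) was lower in rd10-TMB than in WT and 0 were called between the rd10 libraries. Of the 18 rod genes measured in cones, 1 was higher and 5 were lower in rd10-vehicle than in WT, beside the same 6.98% over all genes tested. The higher gene was Pde6a, a catalytic subunit of the rod phosphodiesterase, with 0.60 (0.29 to 0.94). Those lower included Guca1b, an activator of guanylate cyclase, with -1.90 (-2.29 to -1.54), and Gnb1 with -1.11 (-1.46 to -0.77). In rd10-TMB over WT 0 were higher and 5 lower (background 6.92%), namely Gnb1, Guca1b, Nxnl1, Reep6 and Nr2e3, the last counted above as a member too. Between the rd10 libraries (background 3.36%) only Nxnl1 was called, lower in rd10-TMB by -0.66 (-0.93 to -0.39).

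The same lists were counted in the bipolar classes, where more of them were called. In rod bipolar-like cells, 9 of 18 rod genes were lower in rd10-vehicle than in WT (background 5.62%) and 7 were higher with TMB than with vehicle (3.06%), the median log2 ratios being -0.50 and 0.44 beside 0.02 and -0.02 over all genes tested. In ON cone bipolar-like cells the counts were 11 lower (8.34%) and 7 higher (3.31%) of 18, with medians of -0.82 and 0.53. The OFF cone bipolar-like class had 4 lower (4.47%) of 18 and 2 higher (3.54%) of 17. Gnat1, for example, was lower in rd10-vehicle than in WT by log2 ratios of -1.14 (-1.49 to -0.81), -1.79 (-2.16 to -1.44) and -1.07 (-1.48 to -0.70) in these classes. These directions are those given for Nrl in the same classes.

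Cone genes went the other way in rod bipolar-like and OFF cone bipolar-like cells of rd10-vehicle. In rod bipolar-like cells 7 of 9 were higher than in WT (background 5.62%). They were Opn1sw, Opn1mw, Arr3, Gnat2, Gngt2, Pde6c and Pde6h, the last with 1.10 (0.66 to 1.60). In OFF cone bipolar-like cells 5 of 8 were higher (4.47%), namely Opn1sw, Opn1mw, Gnb3, Pde6h and Cngb3. In ON cone bipolar-like cells Pde6h was higher and Cngb3 lower of 9 (8.34%). In rd10-TMB over WT, 2 of 10 (Gngt2 and Cngb3) were higher in rod bipolar-like cells and 4 of 8 (Opn1mw, Arr3, Gnb3 and Pde6h) in OFF cone bipolar-like cells, against backgrounds of 4.87% and 4.51%. Between the rd10 libraries, 0 were higher and 2 lower with TMB of 10 in rod bipolar-like cells (3.06%). The counts were 0 and 1 of 9 in ON (3.31%) and 1 and 0 of 8 in OFF cone bipolar-like cells (3.54%). The cone genes given here were named after their values were seen, and how much of either list in bipolar cells was free RNA from rods and cones was not tested.

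A list of 33 other regulators of photoreceptors and bipolar cells was counted in the same way. In rods, 1 was higher and 2 were lower of 24 measured in rd10-vehicle over WT, a share near the 10.9% over all genes tested. The higher gene was Nfix, from 20 and 15 UMIs, and the lower ones were Rxra, from 5 and 36 UMIs, and Esrrg. In rd10-TMB over WT 1 was higher of 26 (Nfib, background 9.91%), and between the rd10 libraries 1 was higher of 23 (Esrrg, 4.73%). Esrrg, a relative of Esrrb, was at 25 CPM in WT rods and 10.5 CPM in rd10-vehicle rods, with a log2 ratio of -1.14 (-2.48 to -0.21). Pias3, which modifies CRX and NR2E3 activity, had -0.58 (-1.15 to -0.09) and was not called. In cones, 1 was higher and 1 was lower of 26 in rd10-vehicle over WT (background 6.98%), where the LIM homeobox gene Lhx4 had -0.69 (-1.04 to -0.34). In rd10-TMB over WT 1 was higher (Prdm1) and 3 were lower (Lhx4, Sp4 and Rxrb) of 24 in cones (6.92%). The zinc finger repressor gene Prdm1, which holds back the bipolar fate, was the only 1 of 26 called between the cones of the rd10 libraries (3.36%), higher in rd10-TMB, 54.3 against 35.9 CPM, with 0.59 (0.19 to 1.01).

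The genes whose levels over clusters were most like those of each member were found by the Pearson correlation of log2(CPM + 1) over the 16 clusters with at least 50 cells, libraries summed. These values describe clusters that share libraries and were made from expression in the same cells, so no p is given. Crx was nearest to Neurod1 (r of 0.977), Nrl to Pde6b (0.991) and Nr2e3 to Gnat1 (0.984), while Samd11 had 0.971 with Guca1b. Esrrb was nearest to Cep164 (0.941) and Otx2 to Plk5 (0.933). The values were lower for Rorb with Zfp938 (0.914), Rxrg with Slc17a6 (0.901) and Thrb with Arl6 (0.872).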

How the data were processed

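Single-cell libraries were made from pooled retinas of the WT, rd10-vehicle and rd10-TMB groups, with 1 library per group. The authors aligned reads to mm10 with Cell Ranger 6.0.1, removed doublets with Scrublet, kept cells with at least 500 detected genes and clustered them in Seurat 3.2.2. Values in the matrix as deposited are on a natural log scale: each cell was scaled to 10000 UMIs, 1 was added and the log was taken. The authors also deposited, for each cell, its UMI count, its library and its cluster number. UMI counts were recovered from both, and 100% of the entries were whole within 0.001 UMI in 15242 cells. No doublet caller was run, since doublets had been removed before deposit. The libraries held 18882951, 37002532 and 29192530 UMIs (WT, rd10-vehicle, rd10-TMB).

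The UMIs of all cells of a class were added up in each library and expressed as CPM. A class was named by markers at least 2-fold over the remaining cells and at least 20 CPM. Ratios had a pseudocount of 1 UMI. Intervals were exact Poisson, conditional binomial or Clopper-Pearson at 95%, and a count of 0 has the limit of 3 counts. Cells are not replicates, so no test across groups was possible. Comparisons over cells that the authors made with MAST were not used. The 9 genes and the lists were chosen with earlier results of these data known. Besides the 9, up to 4 genes per list with the largest ratios and at least 50 UMIs were named, with the nearest genes by correlation. Other genes behind small counts of calls (Kcne2, Nfix, Rxra and Nfib in rods, Pde6a and Reep6 in cones) were named after their values were seen. Alternatives covered scaling, genes in the total, cell filters, depth, pseudocount, minimum and fold limit. The statistics were tested on simulated counts. Promoter windows came from RefSeq on GRCm38.p6, and gene positions from an annotation of the same build. Python 3.11.15, numpy 2.4.6, scipy 1.17.1, pandas 2.3.3 and matplotlib 3.10.9 were used. Some genes of the lists are not reported here.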

Additional observations from a re-analysis of the deposited data

Results flagged for a closer look

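For a pair of genes, classes went opposite ways under the same contrast, with counting intervals that excluded 0 on both sides. Nr2e3 in rd10-TMB over rd10-vehicle had a log2 ratio of 0.76 in rod bipolar-like cells and -0.19 in rods. Thrb in rd10-vehicle over WT had 1.06 in OFF cone bipolar-like cells and -0.35 in cones. With 1 library per group, the difference between the classes was not tested.

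Small clusters outside the comparisons held members above the level in the endothelial-like cluster 11. Otx2 in cluster 15, whose leading genes include Ttr, Rpe65 and Rgr, was at 622 (WT), 251 (rd10-vehicle) and 521 CPM (rd10-TMB), from 13, 35 and 16 cells. Rorb was at 286 CPM in the 37 WT cells of the ganglion cell-like cluster 16, and at 988 CPM in WT and 931 CPM in rd10-TMB in the horizontal cell-like cluster 19, from 18 and 6 cells. Rxrg was at 33.8 CPM in WT cells of cluster 16.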

How the results depend on the processing

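The counts of members called were small, so single genes near the limits moved them. Median-of-ratios scaling, totals without mitochondrial and ribosomal genes or without the 10 top genes, and a pseudocount of 0.1 UMI changed none of the 15 counts. With no minimum only rod bipolar-like cells moved, to 3 in rd10-TMB over rd10-vehicle. In the following, counts are given for rd10-vehicle over WT, rd10-TMB over WT and rd10-TMB over rd10-vehicle in that order where several moved. With cells of at least 1000 genes, rods had 2 calls in the first and 2 in the last (Rorb and Esrrb both times, with Crx no longer called), cones 2 and 2 over WT, rod bipolar-like cells 1 in the last, ON cone bipolar-like cells 0 and 3 in the last pair and OFF cone bipolar-like cells 1 in the first. With a mitochondrial share of at most 10%, rods had 0 in the first, cones 0 in the last, rod bipolar-like cells 1 in the last, ON cone bipolar-like cells 0 and 1 in the last pair and OFF cone bipolar-like cells 1 in the first. With WT cells holding Xist and no Y-linked UMI, rods had 2 (Crx and Samd11) and 1 (Samd11) over WT, rod bipolar-like cells 2 and 1 over WT, ON cone bipolar-like cells 0 in rd10-TMB over WT and OFF cone bipolar-like cells 1 in the first. With cells thinned to 1000 UMIs, cones had 2, 2 and 0, rod bipolar-like cells 0 in the first and 0 in the last, ON cone bipolar-like cells 1, 0 and 1, and OFF cone bipolar-like cells 0 in the first and 0 in the last. With a fold limit of 2, rods had 0 in the first, cones 0 in the last, rod bipolar-like cells 1 in the last, ON cone bipolar-like cells 0 and 1 in the last pair and OFF cone bipolar-like cells 1 in the first. In rd10-vehicle over WT, the mean over cells gave 2 in cones, 3 in ON and 1 in OFF cone bipolar-like cells, leaving out the 5% of cells with most UMIs gave 3 in cones, and no condition on the interval gave 2 in cones and 3 in ON cone bipolar-like cells. A minimum of 50 UMIs gave 0 in cones in rd10-TMB over WT and 1 in OFF cone bipolar-like cells in rd10-vehicle over WT. The cause was not tested, apart from fewer cells or UMIs under the filters.

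Crx in rods of rd10-vehicle over WT kept its sign under 10 of 10 settings, with log2 ratios of -0.72 to -0.50, and in cones of -0.62 to -0.41. Among the ratios of members under the alternatives, 1085 stayed within the counting interval of the value reported, 35 moved out of it and 0 reversed a called value. Leaving out a replicate could not be done, since each group was 1 library. No paired analysis was possible because each group had 1 library and the results come from no test.

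Depth limits the genes with few UMIs. Rxrg in rods and the bipolar classes and Esrrb in the bipolar classes were too low for a comparison at this depth, Esrrb in cones rested on 13 to 23 UMIs per library, and the intervals of Nrl and Nr2e3 outside rods were wide. Rods were the shallowest class, with medians of 1406 to 1536 UMIs per cell, so a share of rods without a UMI is not a share of rods without the transcript.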

Other observations

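Members were also found in classes outside photoreceptors and bipolar cells. Rorb was at 598, 192 and 203 CPM in the amacrine-like cluster 5 of WT, rd10-vehicle and rd10-TMB, and at 844, 786 and 761 CPM in the amacrine-like cluster 9. Rxrg was at 1.20, 3.24 and 3.58 CPM in the Müller glia-like cluster 0, from 4, 72 and 60 UMIs, and these were 31.6% and 26.5% of all Rxrg UMIs in rd10-vehicle and rd10-TMB. Thrb was at 46.1, 32.6 and 35.5 CPM in the Müller glia-like cluster 0. Per 1000 Arr3 UMIs, cluster 0 held 2887, 1140 and 898 Thrb UMIs, against 120, 120 and 81.1 in cones.

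Clusters 6 and 10, which carried markers of both bipolar and amacrine cells and were kept by number, held Otx2 at 271, 416 and 359 CPM and at 240, 414 and 288 CPM. Gnb3 in OFF cone bipolar-like cells was at 129 (WT), 246 (rd10-vehicle) and 229 CPM (rd10-TMB). Neurod1, the gene nearest to Crx over clusters, was at 1266, 1584 and 1323 CPM in rods.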
